A study of Mus musculus with 48 samples.

Results

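ATP-binding cassette (ABC) proteins were read in sorted cells of the mouse spleen as a family across the 3 stages that lead to red pulp macrophages (RPMs). The members were every gene whose symbol carries a subfamily letter from Abca to Abcg followed by a number, with at least 50 reads summed over 24 RNA-seq libraries. Of 54735 genes counted, 50 had such a symbol and 35 reached that total. They comprised 9 Abca, 7 Abcb, 7 Abcc, 4 Abcd, 1 Abce, 3 Abcf and 4 Abcg genes. The member nearest the limit was *Abcc8* with 62 reads, and the genes just outside it were *Abcb6* with 43 and *Abca8a* with 39.

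Splenic monocytes (Ly6Glo CD11bhi F4/80-), pre-RPMs (F4/80lo, otherwise gated alike) and RPMs (Ly6Glo CD11blo/- F4/80hi) were sorted from male Balb/c mice 10 weeks old. The mice were wild type (WT) or labelled as lacking *Il1rl1*, which encodes the receptor for interleukin 33, and both genotypes were on the Balb/c background. Each of the 6 groups held 4 libraries from 4 separate mice, and the same mouse numbers recur in the 3 cell types of a genotype. The comparisons asked how expression changes along this path and whether it differs without the receptor.

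ABC proteins bind and split ATP to move lipids, conjugated anions, drugs, peptides and metal complexes across membranes, except for the Abce and Abcf subfamilies, which act on ribosomes and translation. Macrophages that engulf red cells take up cholesterol-rich membranes together with heme. *Abca1* and *Abcg1* export cholesterol to apolipoprotein A-I and to high-density lipoprotein, and both are known targets of the LXR nuclear receptors, which sense oxidized sterols.

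Libraries held 3562367 to 6559454 counted reads, so that 3 reads, used here as the limit of detection, were worth 0.457 to 0.842 CPM (read counts set to a common library size). A single gene, *Gm42418*, took 24.4% to 38.8% of these reads, which left fewer for all other genes. Levels are CPM with the library sizes scaled by edgeR's TMM factors, and levels of different genes are compared only per kilobase of exon. Of the RPM markers, *Vcam1* was at 1307 to 1858 CPM in all 8 RPM libraries and at 0.215 to 41.9 CPM elsewhere. The monocyte marker *Ccr2* was at 2.14 to 14.2 CPM in WT RPMs against 149 to 593 CPM in WT monocytes and pre-RPMs. Of 8 monocyte markers, 6 were called lower in WT RPMs than in WT monocytes (10.5% of all genes). Called higher (13.4%) were 2, *Csf1r* and *Treml4*, the latter also on the list of RPM markers. The sum of the 8 monocyte markers, 1616 to 1919 CPM in WT RPMs against 1228 to 1679 CPM in WT monocytes, thus did not mark monocytes. The genotype label could not be checked from *Il1rl1* itself, whose reads were summed over all its exons. Its level was 12.5 to 15.3 CPM in monocytes labelled *Il1rl1*-/- and 1.95 to 4.28 CPM in WT monocytes, 11.8 to 12.9 against 3.19 to 5.71 CPM in pre-RPMs, and 0.224 to 1.28 against 1.06 to 3.00 CPM in RPMs. Which exons the allele lacks was not given in the sources used here, so *Il1rl1*-/- names a label here and not a checked genotype. WT pre-RPM library 3 stood apart with 171 reads of *Vcam1* and 21 of *Cd5l*, against 8 to 38 and 0 to 7 in the other WT pre-RPM libraries, and values that changed by a call or a wide margin without it are given both ways.

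Promoter sequence was read for the members with a matched entry in RefSeq's mouse assembly GRCm38.p6. It covers the 250 bases before the start site, 5′ to 3′ on the gene's strand. No entry was matched for *Abcc3*, *Abcg1*, *Abca6* and *Abcd2*, among others, so their promoters were not searched. RefSeq entries were matched for 24 of the 35 members, with 30 start sites. They were searched on both strands for 6 short motifs. The nuclear receptor site was read as AGGTCA, which many sterol and hormone receptors bind, and the E-box of leucine zipper proteins as CACGTG. The site of GATA factors, known from erythroid genes, was read as AGATAA, and that of the macrophage and lymphoid factor PU.1 as GAGGAA. The AP-1 site of Fos and Jun proteins was read as TGAGTCA, and the core promoter box bound by the TATA-binding protein as TATAAA. Capitals mark the matches. The first sequence is shown because the gene's rise to RPMs depended on genotype, the next 2 because these genes rose most in RPMs among those matched, the fourth because the gene fell there, and the last because it differed between genotypes.
Abca1, chr4:53159896-53160145, minus strand: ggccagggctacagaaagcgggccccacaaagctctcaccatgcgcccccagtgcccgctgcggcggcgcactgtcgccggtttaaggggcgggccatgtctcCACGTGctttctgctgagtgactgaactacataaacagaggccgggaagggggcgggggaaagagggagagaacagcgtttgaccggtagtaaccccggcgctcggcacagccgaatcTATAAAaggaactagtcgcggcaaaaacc
Abcb4, chr5:8893471-8893720, plus strand: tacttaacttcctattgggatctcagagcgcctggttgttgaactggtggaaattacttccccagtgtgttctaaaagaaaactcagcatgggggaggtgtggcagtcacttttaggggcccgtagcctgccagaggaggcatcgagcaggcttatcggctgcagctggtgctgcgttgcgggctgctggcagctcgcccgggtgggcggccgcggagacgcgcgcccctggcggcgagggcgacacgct
Abcg3, chr5:104982718-104982967, minus strand: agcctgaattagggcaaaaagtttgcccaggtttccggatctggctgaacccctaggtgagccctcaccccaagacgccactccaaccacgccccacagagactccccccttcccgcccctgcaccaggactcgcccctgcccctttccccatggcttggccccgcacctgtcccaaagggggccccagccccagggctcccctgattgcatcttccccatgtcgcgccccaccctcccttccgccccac
Abca7, chr10:79996244-79996493, plus strand: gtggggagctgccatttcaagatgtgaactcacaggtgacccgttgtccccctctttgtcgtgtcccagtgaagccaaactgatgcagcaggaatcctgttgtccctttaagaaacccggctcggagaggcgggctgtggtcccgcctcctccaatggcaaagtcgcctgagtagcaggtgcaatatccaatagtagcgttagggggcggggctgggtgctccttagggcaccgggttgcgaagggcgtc
Abca9, chr11:110168154-110168403, minus strand: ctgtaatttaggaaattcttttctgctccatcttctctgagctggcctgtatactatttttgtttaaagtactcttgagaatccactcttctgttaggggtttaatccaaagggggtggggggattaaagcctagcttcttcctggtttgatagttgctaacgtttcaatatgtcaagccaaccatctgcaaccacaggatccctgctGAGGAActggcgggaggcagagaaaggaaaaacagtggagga

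The *Abca1* window held an E-box that begins 147 bases and a TATA box that begins 29 bases before the start. These letters are present in 6.02% and 12.4% of the 32851 mouse promoters of that length, and the matches did not overlap. The PU.1 letters, 42 bases before the RefSeq start of *Abca9*, were present in 23.3% of all promoters and in 6 members (*Abca9*, *Abcb10*, *Abcb1a*, *Abcb1b*, *Abcc10* and *Abcg2*). The counted *Abca9* gene begins further upstream, at 110168196 on the minus strand, so that this match lies inside it. GATA letters were found in *Abcf2* (9.99% of all promoters), E-boxes also in *Abcc4* and *Abcf1*, and a TATA box also in *Abca4*. The exact nuclear receptor letters AGGTCA were found in *Abcc2*, *Abcc10* and *Abcg2* (14.0% of all promoters). The AP-1 letters, in 4.46% of all, were found in no matched member. The windows of *Abcb4*, *Abcg3* and *Abca7* held none of the 6 motifs. A match describes these letters and was not tied to binding or to a change in expression. Sites that vary from these exact letters were not searched for. A window without a match, such as that of *Abca1* for nuclear receptors, may therefore still hold a site.

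The summed level of the 35 members was highest in RPMs. It was 637 to 841 CPM in WT monocytes, 848 to 939 in WT pre-RPMs and 1843 to 2115 in WT RPMs, and 704.04 to 892, 960 to 1002 and 2077 to 2261 CPM in the same cells labelled *Il1rl1*-/-. The 3 stages did not overlap in either genotype. In these sorted pools a higher level may reflect more RNA per cell or a larger share of the cells that hold it, and these cannot be told apart. The genes that made up the sum differed between stages. Per kilobase of exon, *Abcf1* gave 12.8% and *Abca7* 9.15% of the family's signal in WT monocytes. In WT RPMs *Abcc3* gave 27.3%, *Abcg3* 22.8% and *Abcg1* 14.7%, and together 64.7%. The same 3 genes gave 65.2% in RPMs labelled *Il1rl1*-/-, although *Abcc3* had given 0.724% in the pre-RPMs of those mice.

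**Figure D1:**
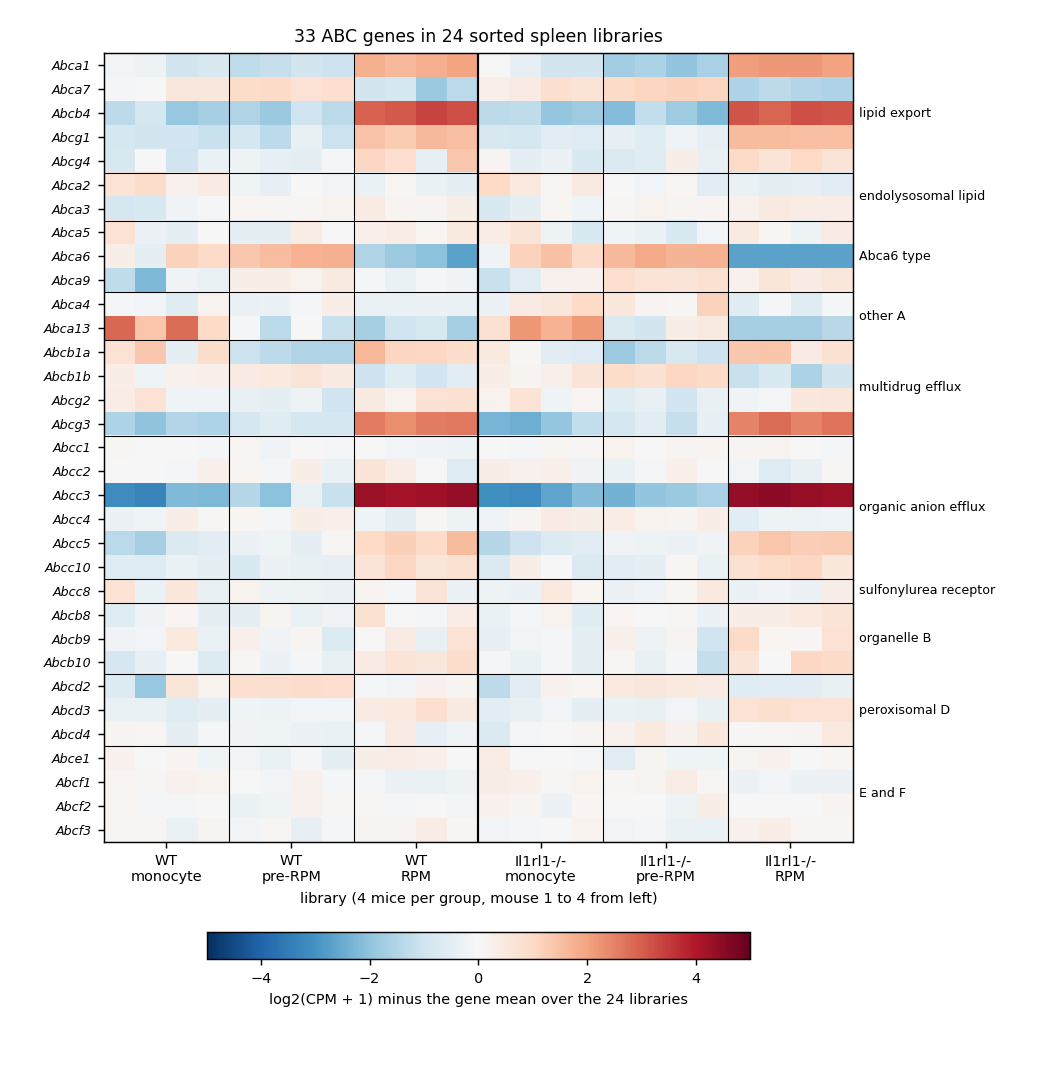
Rows are 33 ABC genes, grouped by role, and columns the 24 libraries, 4 mice per group. Color gives log2(CPM + 1) minus the gene's mean over the libraries; *Abcc3*, *Abcg3* and *Abcb4* are high in all 8 RPM libraries, *Abca6* is low there, and *Abca13* is high in monocytes alone.

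The highest group mean lay in the same cell type in both genotypes for 31 of 35 members: in RPMs for 18, in pre-RPMs for 8 and in monocytes for 5. These counts do not weigh the spread between mice. The matching shares over all genes were not computed, so the counts do not set the family apart. For 5 members (*Abca4*, *Abca5*, *Abcb9*, *Abcc2* and *Abcc8*) too few reads were left after the filter on low counts for any comparison. The other 30 were tested in at least 1 comparison.

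From pre-RPMs to RPMs, 13 of the 28 members tested were called in WT cells. A call needed an adjusted p under 0.01 and more than 1 unit of log2 change in either direction (edgeR's quasi-likelihood test, adjusted over all 11239 genes tested). Of all genes, 24.7% were called by that rule. Of the members, 9 were higher in RPMs (14.0% of all genes) and 4 lower (10.7%). In cells labelled *Il1rl1*-/-, 17 of 29 members were called (26.0% of all genes), 11 higher (14.5%) and 6 lower (11.5%). The median log2 fold change over the tested members was 0.26 in WT and 0.23 in cells labelled *Il1rl1*-/-, beside -0.0012 and -0.0018 over all genes. The rises called in both genotypes were those of *Abca1*, *Abcb1a*, *Abcb4*, *Abcc3*, *Abcc5*, *Abcc10*, *Abcg1* and *Abcg3*, 8 of 9 in WT and 8 of 11 in those labelled *Il1rl1*-/-. The falls called in both, 4 of 4 and 4 of 6, included those of *Abca6*, *Abca7* and *Abcb1b*. The share of all genes called in both genotypes was not computed.

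**Figure D2:**
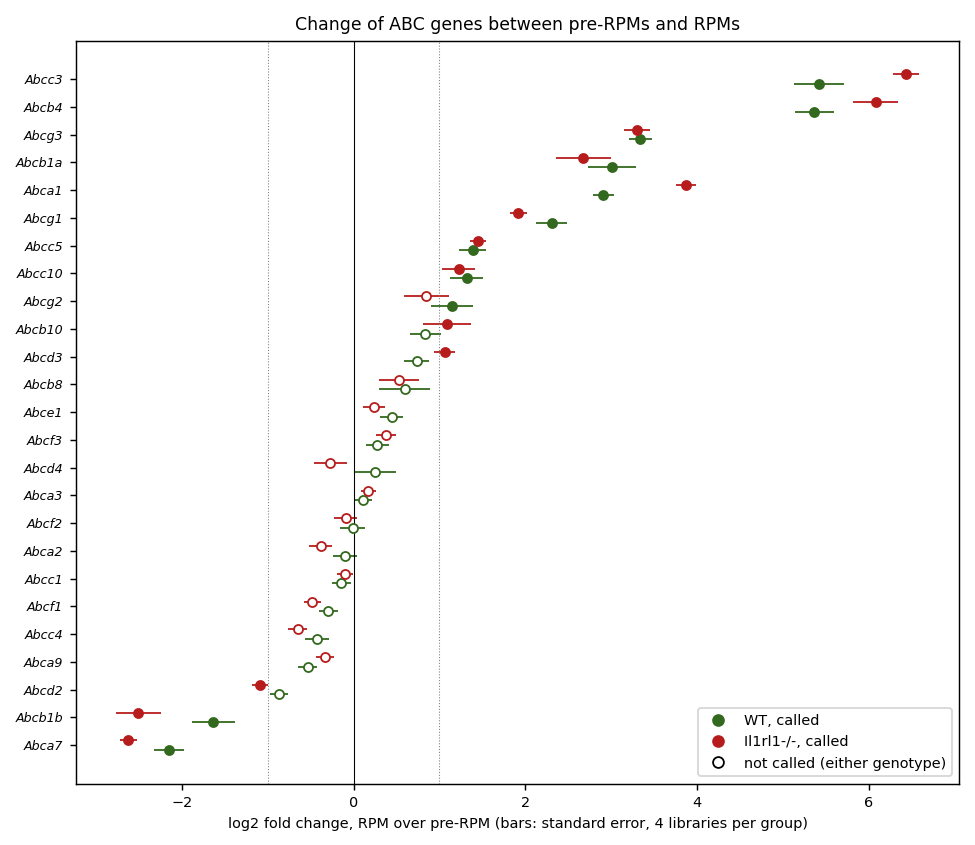
Each row is an ABC gene and each point its log2 fold change from pre-RPMs to RPMs with the standard error, 4 libraries per group; filled points passed the call. Of the 25 genes shown, *Abcc3* and *Abcb4* rose most and *Abca7* fell most; *Abca6*, with no read in RPMs labelled *Il1rl1*-/-, is left out.

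Among the exporters of cholesterol and phospholipid, 3 of the 4 members tested rose in WT RPMs over pre-RPMs (14.0% of all genes) and *Abca7* fell (10.7%). *Abca1* (chr4:53030787-53159895, minus strand) was at 15.6, 17.3, 20.6 and 18.8 CPM in the 4 WT pre-RPM libraries and at 138, 124, 143 and 157 CPM in WT RPMs. Every RPM library was thus far above every pre-RPM library, and the rise was 2.91 on the log2 scale (SE 0.13, adjusted p = 3.21e-10 by edgeR). In cells labelled *Il1rl1*-/- it went from 9.23 to 12.4 CPM in pre-RPMs to 160 to 182 CPM in RPMs, a log2 fold change of 3.87 (SE 0.11, adjusted p = 4.59e-13).

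*Abcg1* (chr17:31057698-31115777, plus strand), which works with *Abca1* in cholesterol export, was at 41.6, 31.0, 60.8 and 36.2 CPM in WT pre-RPMs and 210, 191, 243 and 223 CPM in WT RPMs. Its log2 fold change was 2.31 (SE 0.18, adjusted p = 9.66e-08), and 2.52 without WT pre-RPM library 3, which held its highest pre-RPM level. Cells labelled *Il1rl1*-/- went from 50.5 to 68.2 CPM to 221 to 239 CPM, a log2 fold change of 1.92 (SE 0.10).

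*Abcb4* (chr5:8893717-8959231, plus strand), a phosphatidylcholine floppase best known from the bile canaliculus, was near the limit of detection before the RPM stage. WT pre-RPM libraries held 4, 2, 7 and 5 reads of it and WT RPM libraries 193, 221, 209 and 220. Its level rose from 1.09 ± 0.499 to 48.1 ± 6.57 CPM (mean ± SD, n = 4), or by 5.37 on the log2 scale (SE 0.23; 5.65 without WT pre-RPM library 3), and from 0.594 to 46.6 CPM in cells labelled *Il1rl1*-/- (log2 fold change 6.08, SE 0.26). Of its 50-base windows 2.83% (265) also occur in other genes, 127 of them in *Abcb1a*.

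*Abca7*, a phospholipid transporter linked to phagocytosis, changed in the opposite direction. It was at 120, 121, 104 and 114 CPM in WT pre-RPMs and at 32.2, 33.2, 16.6 and 24.2 CPM in WT RPMs, with no overlap, a log2 fold change of -2.15 (SE 0.17, adjusted p = 1.40e-07). It fell by 2.63 on the log2 scale in cells labelled *Il1rl1*-/-. *Abcg4*, the closest relative of *Abcg1*, held 2 to 18 reads in WT RPM libraries and was left out by the filter on low counts. It was called higher in WT RPMs than in pre-RPMs in a single fit over all 24 libraries (1.96, adjusted p = 0.00680) and in a fit of every gene with at least 1 count (1.90, adjusted p = 0.00259). In RPMs labelled *Il1rl1*-/- it held 10 to 14 reads against 1 to 5 in pre-RPMs, and its rise was called (log2 fold change 2.00, SE 0.44).

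Of 25 further genes of sterol handling, 7 rose and 3 fell from WT pre-RPMs to RPMs, and 5 rose and 3 fell in cells labelled *Il1rl1*-/-. Called in all were 10 and 8 of the 25, beside 24.7% and 26.0% of all genes. The median log2 fold change over them was 0.03 and 0.16. *Nr1h3*, which encodes LXRα, rose from 6.51 to 93.9 CPM in WT cells (log2 fold change 3.80, SE 0.12). Its partner *Rxra* rose by 1.66, the lipase gene *Lpl* by 3.55 and the lysosomal lipase gene *Lipa* by 1.95. *Pltp*, a phospholipid transfer protein also known as an LXR target, fell by 2.77.

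The members that carry organic anions and conjugates included the gene with the highest level in RPMs. *Abcc3* (chr11:94343295-94392997, minus strand) exports glucuronide and bile salt conjugates. It was at 10.0, 6.04, 22.6 and 12.4 CPM in WT pre-RPMs and at 575, 525, 547 and 618 CPM in WT RPMs, a log2 fold change of 5.43 (SE 0.29, adjusted p = 2.39e-09). Its highest pre-RPM library was library 3, and without it the log2 fold change was 5.84. In cells labelled *Il1rl1*-/- the pre-RPM libraries held 4.73 to 8.58 CPM and the RPM libraries 571 to 656 CPM (log2 fold change 6.44, SE 0.15). The difference of 1.03 between these changes (SE 0.33) did not pass the test (adjusted p = 0.378).

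*Abcc5*, which exports cyclic nucleotides and has been linked to heme export, had its highest level in RPMs. WT libraries held 19.97 to 43.1 CPM in monocytes, 46.3 to 68.6 in pre-RPMs and 127 to 195 in RPMs, without overlap. Only the later step was called, with a log2 fold change of 1.39 (SE 0.16) in WT and 1.45 (SE 0.09) in cells labelled *Il1rl1*-/-. *Abcc10*, a drug exporter, rose from 4.19 to 6.30 CPM in WT pre-RPM libraries to 12.6 to 17.3 CPM in RPMs (log2 fold change 1.32, SE 0.19). *Abcc1* and *Abcc4*, exporters of glutathione conjugates and cyclic nucleotides, were called in none of the 11 comparisons. *Abcc1* lay between 28.2 and 37.8 CPM in all 24 libraries.

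Of 10 genes of heme and iron traffic, 9 were tested and 8 rose at the step to RPMs in both genotypes (14.0% and 14.5% of all genes), with medians of 2.95 and 3.11 on the log2 scale. They included *Slc40a1*, the iron exporter ferroportin, at 15.9 CPM in WT pre-RPMs and 1646 CPM in WT RPMs, and *Slc48a1*, a heme transporter of the phagolysosome, at 22.8 and 182 CPM. Of 3 ABC proteins whose symbols lie outside the rule, *Tap1* and *Tap2*, which load peptides onto MHC class I, were called in neither genotype at that step, and *Cftr* was not tested.

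**Figure D3:**
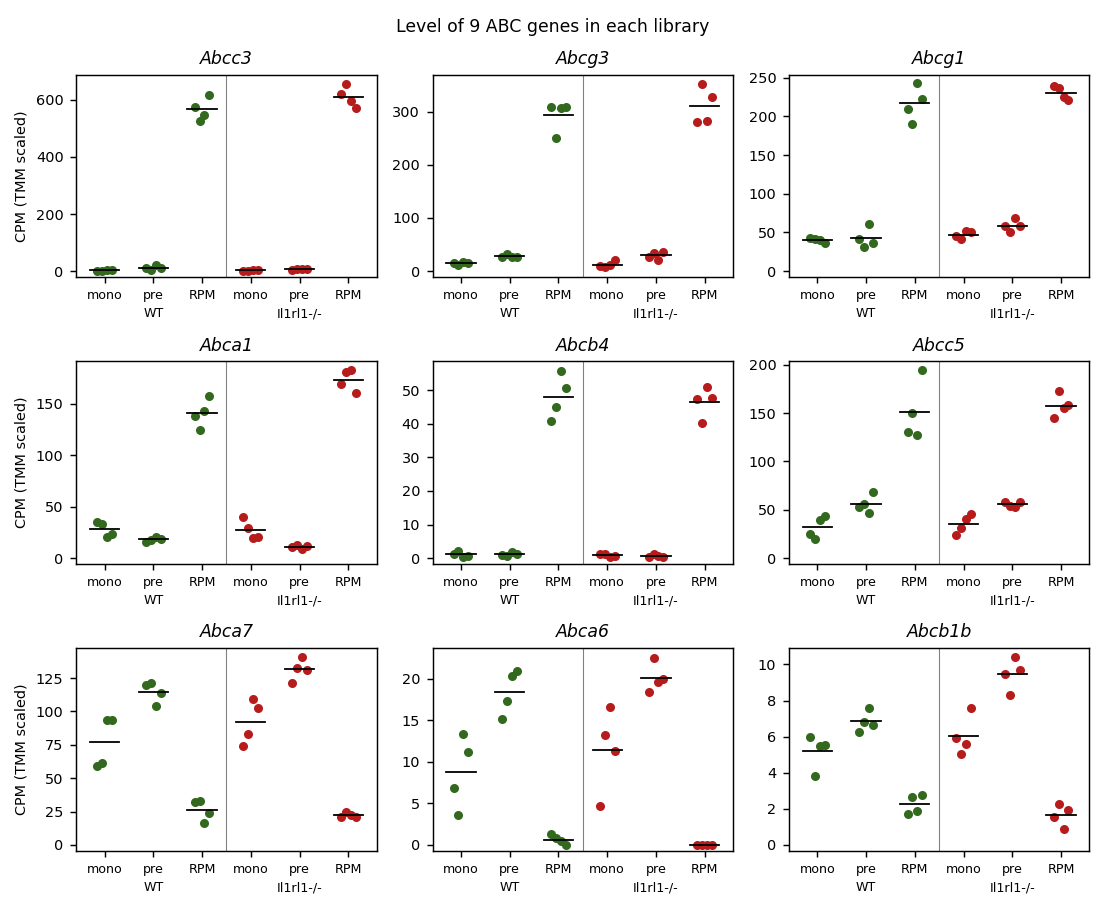
Points are single libraries and bars group means of TMM-scaled CPM on linear axes, WT in green and those labelled *Il1rl1*-/- in red, for 9 ABC genes. The first 6 are highest in RPMs, where *Abcc3* is at 525 CPM or more in all 8 libraries; *Abca7*, *Abca6* and *Abcb1b* are lowest there.

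*Abcg3* (chr5:104935057-104982718, minus strand) was grouped with the multidrug exporters as a rodent relative of *Abcg2*, and drug export by it was not tested. It reached 309, 250, 308 and 309 CPM in WT RPMs from 27.2, 32.0, 26.7 and 26.4 CPM in pre-RPMs. The log2 fold change was 3.34 (SE 0.13, adjusted p = 1.94e-10) in WT and 3.30 (SE 0.15) in cells labelled *Il1rl1*-/-. Per kilobase its level in WT RPMs was 82.8 CPM, below the 99.4 CPM of *Abcc3* and above the 53.3 CPM of *Abcg1*. *Abcg2*, an exporter of drugs and porphyrins, rose from 2.86 to 5.39 CPM in WT pre-RPMs to 7.53 to 12.0 CPM in RPMs (log2 fold change 1.15, SE 0.24). It lost that call without WT pre-RPM library 4 (0.98), since the fold then fell under the limit. In cells labelled *Il1rl1*-/- it was at 2.98 to 4.92 and 5.83 to 10.4 CPM and was not called (log2 fold change 0.85).

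Both mouse genes for P-glycoprotein changed at this step, *Abcb1a* upward and *Abcb1b* downward. *Abcb1a* rose from 2.33, 1.84, 1.47 and 1.43 CPM in WT pre-RPMs to 21.2, 13.4, 13.1 and 11.8 CPM in RPMs (log2 fold change 3.01, SE 0.28). *Abcb1b* fell from 6.28, 6.83, 7.60 and 6.67 CPM to 1.69, 2.65, 1.87 and 2.77 CPM (log2 fold change -1.63, SE 0.25). The log2 fold changes in cells labelled *Il1rl1*-/- were 2.68 and -2.51. In the transcript sequences 17.6% of the 50-base windows of *Abcb1a* and 11.6% of those of *Abcb1b* occur in another gene, 889 of them in each other, and reads from these windows cannot be assigned to either.

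*Abca6* and *Abca9* are neighbors on the minus strand of chromosome 11, at chr11:110176820-110251776 and chr11:110100749-110168196, in a cluster with *Abca5*, *Abca8a* and *Abca8b*. They are thought to act in lipid transport, and little is known of their substrates. *Abca6* was found in pre-RPMs and monocytes and all but absent from RPMs. WT pre-RPM libraries held 65, 66, 83 and 88 reads of it and WT RPM libraries 6, 4, 2 and 0, a log2 fold change of -4.76 (SE 0.35, adjusted p = 6.02e-08). The pre-RPM libraries labelled *Il1rl1*-/- held 78, 133, 66 and 107 reads and the RPM libraries none. Against the limit of 3 reads per library, *Abca6* was at least 32.8-fold lower there than in pre-RPMs and at least 18.6-fold lower than in monocytes. Among the 6 monocyte markers called lower in WT RPMs, *Ccr2*, *Itgam* and *Ly6c2* were there at 2.14 to 14.2, 1.34 to 4.27 and 1.15 to 4.48 CPM, and the part of monocytes in the 12 reads of *Abca6* in WT RPMs was not tested.

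*Abca9*, although its neighbor, did not disappear. It was at 109, 109, 97.8 and 120 CPM in WT pre-RPMs and at 81.5, 69.0, 81.2 and 78.3 CPM in WT RPMs. These groups did not overlap, but the change of -0.53 (SE 0.11) was below the fold needed for a call. The change in cells labelled *Il1rl1*-/- was -0.33 (SE 0.10). *Abca6* and *Abca9* shared 13 of the 50-base windows of *Abca6* (0.243%).

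Members of the D subfamily act in pairs in peroxisomes and lysosomes. *Abcd2*, a peroxisomal importer of very long-chain fatty acids, was called at this step in cells labelled *Il1rl1*-/- (-1.09, SE 0.09). In WT its change (-0.87, SE 0.11, adjusted p = 1.10e-05 by edgeR) missed the fold limit alone. *Abcd3*, which imports branched-chain and bile acid intermediates, was called in cells labelled *Il1rl1*-/- (1.06, SE 0.12). In WT it too missed the fold limit alone (0.73, adjusted p = 0.000912). Neither gene passed the interaction at this step. *Abcd4*, needed for lysosomal cobalamin export, was called in no comparison.

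Among the members of organelle membranes, *Abcb10*, a mitochondrial protein needed for heme synthesis in red cell precursors, was at 6.90 to 9.77 CPM in WT pre-RPMs and 12.9 to 18.0 CPM in RPMs, 0.84 on the log2 scale. In cells labelled *Il1rl1*-/- it was called (1.09, SE 0.28) with 3.54 to 9.70 CPM in pre-RPMs and 9.48 to 19.95 CPM in RPMs, where the groups overlapped. *Abcb8* was not called in any comparison.

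Red cell transcripts varied widely among the RPM libraries beside these genes. The summed level of 7 erythroid genes was 1871, 1255, 22120 and 9266 CPM in the 4 WT RPM libraries and 2599, 828, 10488 and 14293 CPM in those labelled *Il1rl1*-/-. *Abcb10* was at 12.9, 15.5, 14.4 and 18.0 CPM and at 15.02, 9.48, 19.95 and 19.0 CPM in the same libraries. *Abcg2* was at 9.31, 7.53, 11.8 and 12.0 CPM and at 5.83, 6.05, 10.1 and 10.4 CPM. In both genotypes libraries 3 and 4 held the most erythroid RNA and the highest *Abcg2*, and for *Abcb10* this was so in the libraries labelled *Il1rl1*-/- alone. Some T cell, NK cell and eosinophil genes also moved at this step. The sum of 7 T cell genes was 14.7 to 27.2 CPM in WT pre-RPMs and 43.6 to 103 CPM in WT RPMs. In cells labelled *Il1rl1*-/- it was 11.9 to 21.5 against 47.1 to 80.7 CPM. Of these 7 genes, 4 were tested in each genotype. *Cd4*, *Cd3g* and *Cd3e* were called higher in WT (14.0% of all genes), and *Cd4* alone in cells labelled *Il1rl1*-/- (14.5%). The sum of 7 eosinophil genes went from 59.1 to 134 CPM to 274 to 398 CPM in WT. Of its 3 genes tested there, *Ccr3* was called higher and *Alox15* lower. Of 4 tested in cells labelled *Il1rl1*-/-, *Ccr3* was called higher and *Alox15* and *Siglecf* lower. The genes of this list thus moved in opposite directions, and its sum did not mark eosinophils. Of the NK cell genes, 4 of 5 tested were called lower in WT RPMs (10.7% of all genes). In cells labelled *Il1rl1*-/- 1 of 4 was called lower (11.5%). Of 7 B cell genes, 0 were called in either genotype. The part of other cells in the members' levels was not tested.

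The ribosomal and translation members, *Abce1*, which splits ribosomes after termination, and *Abcf1*, *Abcf2* and *Abcf3*, were called in none of the 11 comparisons. *Abcf1* was at 49.97 to 83.1 CPM in all 24 libraries and *Abcf2* at 15.6 to 25.5 CPM. Of the endolysosomal lipid transporters *Abca2* and *Abca3*, neither was called at the step to RPMs. *Abca3*, known for lamellar bodies of lung surfactant, held 66.2 to 71.4 CPM in WT pre-RPMs and 70.0 to 84.7 CPM in RPMs.

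The earlier step, from monocytes to pre-RPMs, moved few members. In WT cells 2 of 28 were called (3.57% of all genes), both lower in pre-RPMs, where 3.25% of all genes were called lower and 0.316% higher. In cells labelled *Il1rl1*-/- 3 of 28 were called (4.85%), with *Abcg3* higher (0.974% of all genes) and *Abca1* and *Abca13* lower (3.88%). All of these calls were sensitive to single libraries. In WT no member was called when any 1 of the pre-RPM libraries was left out, and in those labelled *Il1rl1*-/- each of the 3 calls was lost in 4 of 8 such fits. *Abca13*, the gene with the longest exon sequence of the family, held 146, 37, 91 and 36 reads in WT monocytes and 9, 1, 9 and 2 in WT pre-RPMs (log2 fold change -3.42, SE 0.62, adjusted p = 0.00514). In WT RPMs it held 6 reads in all. Monocytes were 40.5 times higher than RPMs (95% counting interval 18.4 to 111, exact) in WT, and 203 times (36.1 to 8079) in those labelled *Il1rl1*-/-, where a single read was left. *Abcb1a* was at 10.4, 16.6, 3.90 and 11.7 CPM in WT monocytes and fell by 2.58 (SE 0.42) on the log2 scale to pre-RPMs.

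Markers of other cells also varied among the monocyte libraries. The summed level of 9 neutrophil genes was 2500, 1352, 2056 and 799 CPM in WT monocyte libraries 1 to 4, with *Abca13* at 22.3, 7.39, 20.9 and 5.39 CPM. In monocytes labelled *Il1rl1*-/- it was 1037, 2098, 1841 and 2017 CPM, with *Abca13* at 4.43, 13.2, 9.69 and 12.8 CPM. The order of the libraries was the same for the markers and for *Abca13* in each genotype. The neutrophil sum was 175 to 312 CPM in WT pre-RPMs and 47.3 to 53.8 CPM in WT RPMs. *Abcb1a* was lowest in monocyte libraries 3 of WT (3.90 CPM) and 4 of those labelled *Il1rl1*-/- (3.50 CPM). The sum of 7 NK cell genes was lowest in libraries 3 of both, at 555 and 490 CPM against 784 to 1847 CPM in the others. The order of the libraries for NK cell genes differed from that for *Abcb1a* in each genotype. The sum of 7 T cell genes had the same order as the NK cell sum, at 97.6, 129, 45.9 and 68.9 CPM in WT. It was 120, 89.3, 43.5 and 50.2 CPM in monocytes labelled *Il1rl1*-/-. The labels of the sort name no NK cell marker, whereas the study's flow cytometry counted RPMs among NK1.1-low cells. The part of neutrophils or NK cells in *Abca13* and *Abcb1a* was not tested.

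**Figure D4:**
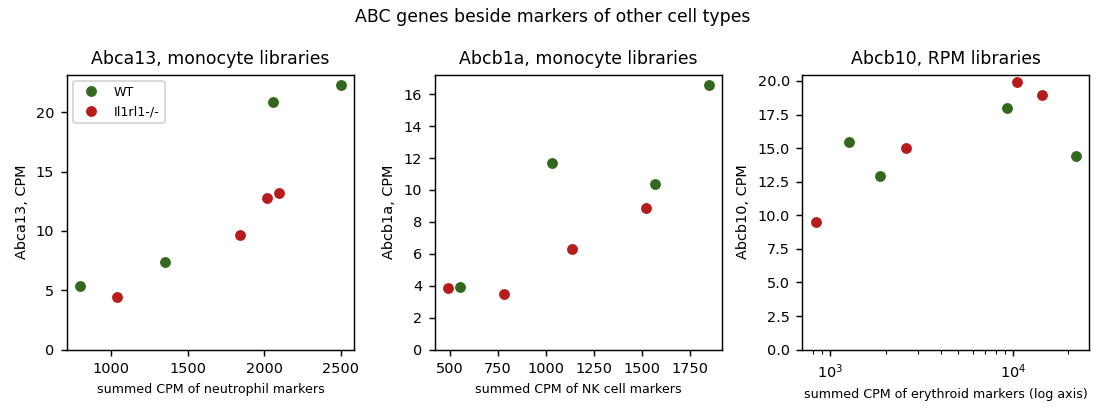
Each point is a library: *Abca13* and *Abcb1a* in the 8 monocyte libraries against the summed CPM of neutrophil and NK cell markers, and *Abcb10* in the 8 RPM libraries against erythroid markers on a log axis. *Abca13* is highest, at 22.3 CPM, where the neutrophil sum is 2500 CPM, and *Abcb10* is lowest, at 9.48 CPM, where the erythroid sum is 828 CPM.

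The level of *Abca1* was lowest in pre-RPMs in both genotypes. Monocyte libraries labelled *Il1rl1*-/- held 39.6, 29.4, 19.8 and 20.4 CPM and the pre-RPMs 11.1, 12.4, 9.23 and 12.1 CPM, which did not overlap (log2 fold change -1.26, SE 0.23, adjusted p = 0.00318). In WT cells monocytes were at 20.4 to 35.4 CPM and pre-RPMs at 15.6 to 20.6 CPM, and the change of -0.64 (SE 0.19) was not called. *Abcg3* rose from 8.41 to 20.4 CPM in monocytes labelled *Il1rl1*-/- to 21.7 to 36.9 CPM in pre-RPMs (1.28, SE 0.26). *Abcc3*, *Abca9* and *Abca6* were each higher in WT pre-RPMs than in WT monocytes without overlap, with log2 fold changes of 1.78, 1.12 and 1.08, and did not reach an adjusted p under 0.01 (0.0190, 0.0494 and 0.0381). With mouse number as a block, *Abcc3* passed in WT (adjusted p = 0.00160) and *Abca9* in cells labelled *Il1rl1*-/- (1.02, adjusted p = 0.00476).

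Over the whole path from monocytes to RPMs, 13 of 29 members were called in WT cells (23.9% of all genes), 9 higher in RPMs (13.4%) and 4 lower (10.5%), and 15 of 30 in cells labelled *Il1rl1*-/- (25.9%), 10 higher (14.3%) and 5 lower (11.6%). This comparison shares its libraries with the steps above. It called *Abcd3* in both genotypes, from 8.26 to 10.1 CPM in WT monocytes to 17.4 to 24.05 CPM in WT RPMs (1.02, SE 0.15). In WT that call was lost in 2 of 8 fits that leave out a library, with a value of 0.92 without WT RPM library 3. *Abcb10* was called in WT (1.22, SE 0.22) and not in cells labelled *Il1rl1*-/-. The fall of *Abcb1b* in WT (-1.22, SE 0.26) had an adjusted p of 0.00270, and of 0.010001, just past the limit, with mouse number as a block. The call of this fall was lost in 2 of 8 fits that leave out a library. *Abca7* fell by 1.54 in WT and by 2.06 in those labelled *Il1rl1*-/-, and *Abcc3* had the largest rise among the members (7.23 and 7.43).

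Between genotypes, few members differed. With an adjusted p under 0.05 and no limit on the fold, 0 of 28 members were called in monocytes by edgeR (0.0614% of all genes, 0.0438% higher in those labelled *Il1rl1*-/- and 0.0175% lower), where 1 member had an unadjusted p under 0.05 and DESeq2 also called 0. In pre-RPMs 1 of 26 members was called (0.552% of all genes, 0.168% higher and 0.383% lower), and in RPMs 1 of 27 (0.233%, with 0.152% higher and 0.0807% lower). Both calls were of *Abca9*, which was higher in cells labelled *Il1rl1*-/-. Its level was 109, 109, 97.8 and 120 CPM in WT pre-RPMs and 157, 142, 136 and 150 CPM in pre-RPMs labelled *Il1rl1*-/-, without overlap. The difference was 0.43 on the log2 scale (SE 0.09, adjusted p = 0.0462). In RPMs WT libraries held 69.0 to 81.5 CPM and those labelled *Il1rl1*-/- 102, 133, 118 and 129 CPM, a difference of 0.63 (SE 0.11, adjusted p = 0.0239). In monocytes the groups overlapped, at 17.8 to 77.1 and 39.6 to 103 CPM (0.60, SE 0.44).

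Both calls of *Abca9* were close to the limit. When each library was left out in turn, the pre-RPM call was lost in 7 of 8 fits and the RPM call in 6 of 8, with log2 differences of 0.38 to 0.47 and 0.59 to 0.71. Without WT pre-RPM library 3 the pre-RPM difference was 0.38 (adjusted p = 0.109). In a single fit over all 24 libraries neither passed (adjusted p = 0.851 and 0.673).

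*Abcd2* differed in the opposite direction and did not pass. It was at 72.6, 70.9, 74.3 and 72.6 CPM in WT pre-RPMs and 56.5, 59.0, 56.0 and 54.1 CPM in the pre-RPMs labelled *Il1rl1*-/- (-0.37, SE 0.08, adjusted p = 0.0714). In RPMs it was at 36.2 to 46.2 and 26.0 to 30.7 CPM (-0.58, SE 0.11, adjusted p = 0.0603). Neither pair of groups overlapped. With mouse number as a block, 2 members were called in RPMs, *Abca9* and *Abcd2* (adjusted p = 0.0204 for the latter), and DESeq2 called the same 2. *Abcg1* was higher by 0.46 (SE 0.16) in pre-RPMs labelled *Il1rl1*-/-, with overlapping groups (adjusted p = 0.354). Without WT pre-RPM library 3 that difference was 0.68 (adjusted p = 0.0131).

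**Figure D5:**
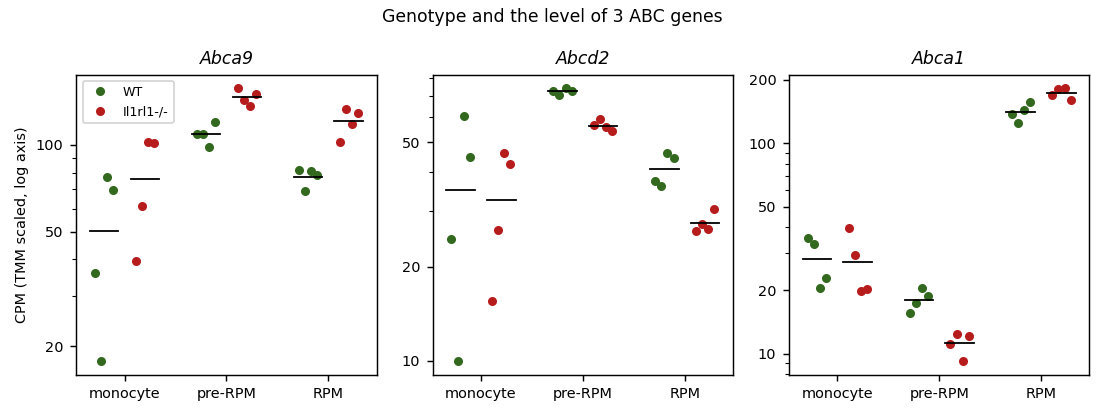
Points are single libraries on log axes in TMM-scaled CPM and bars are group means, WT in green and those labelled *Il1rl1*-/- in red. In pre-RPMs and RPMs *Abca9* is higher and *Abcd2* lower in all 4 libraries labelled *Il1rl1*-/-, whereas *Abca1* is lower in pre-RPMs and higher in RPMs.

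The change of *Abca1* from pre-RPMs to RPMs depended on genotype. It was larger in cells labelled *Il1rl1*-/- by 0.98 on the log2 scale (SE 0.16, adjusted p = 0.00972, edgeR's interaction term), the only 1 of 29 members to pass (0.107% of all genes, 0.0658% with a higher and 0.0412% with a lower value). All 4 pre-RPM libraries labelled *Il1rl1*-/- (9.23 to 12.4 CPM) were below all WT pre-RPM libraries (15.6 to 20.6 CPM), and all 4 RPM libraries labelled *Il1rl1*-/- (160 to 182 CPM) were above those of WT (124 to 157 CPM). Taken singly neither difference passed, at -0.67 (adjusted p = 0.0562) and 0.29 (adjusted p = 0.531). The interaction was 0.91 (adjusted p = 0.0307) without WT pre-RPM library 3, and did not pass in a single fit over all 24 libraries (0.97, adjusted p = 0.398). No member passed the interaction for the step from monocytes to pre-RPMs, where edgeR and DESeq2 each called 0 of all genes and 1 of 28 members had an unadjusted p under 0.05.

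Marker RNA of other cell types also differed between the pre-RPM groups. The NK cell sum was 69.3 to 138 CPM in WT pre-RPMs and 13.0 to 49.9 CPM in those labelled *Il1rl1*-/-, and the sum of 7 basophil and mast cell genes was 12.3 to 63.7 and 3.31 to 5.22 CPM. The sum of 6 dendritic cell genes was 39.96 to 78.3 CPM in WT and 87.8 to 113 CPM in those labelled *Il1rl1*-/-. Only 3 of these genes were tested, and *Itgax* alone was called, higher. The sum of 7 B cell genes was 52.0 to 75.5 and 21.7 to 47.8 CPM, with *Ms4a1* and *Pax5* called lower. None of these 4 sums overlapped between the groups. The sum of 9 RPM markers was 157 to 339 and 173 to 223 CPM, and that of 9 neutrophil markers 175 to 312 and 228 to 463 CPM. WT pre-RPM library 3 gave the highest WT value of the basophil and mast cell, RPM and neutrophil sums, and without it these were 12.3 to 32.1, 157 to 203 and 175 to 220 CPM, so that the neutrophil sums no longer overlapped. Among the basophil and mast cell genes *Fcer1a* was at 0 in pre-RPMs labelled *Il1rl1*-/-, and among the NK cell genes *Klra8* was at 0 in the pre-RPMs of both genotypes. Whether this RNA came from other cells or from the sorted stage itself was not tested. The part of other cells in the levels of *Abca1*, *Abca9* and *Abcd2* was not tested either.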

How the data were processed

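RNA-seq libraries were made by the study from total RNA of sorted spleen cells with a stranded pico kit. The authors trimmed the reads, aligned them with STAR 2.5.1 to the mouse genome and counted reads per gene on the reverse strand with featureCounts 1.6.2 and Ensembl annotation 95 of GRCm38, per the file headers and the study's methods. The submitters' processing notes list cutadapt 2.8 and also name a human build, whereas the file headers give the mouse annotation. The deposited values are raw counts, with exon lengths, and reads that map to several genes were not assigned. The 24 chromatin accessibility samples of the 48 samples in the series were not analysed here.

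Samples were grouped by the labels, and the 24 libraries (3562367 to 6559454 counts) were compared in 9 pairs of groups and 2 interactions. Each comparison was fitted to the counts of its own libraries with edgeR 4.0.16 in R 4.3.3 (TMM factors, filterByExpr, quasi-likelihood F test, 2-sided), with Benjamini-Hochberg adjustment over all genes tested. Comparisons of cell types were called where the adjusted p was under 0.01 and the log2 change exceeded 1 in size, and genotypes where it was under 0.05, both limits taken from the study. Interactions were called at 0.05 too. The study used DESeq2, which was run as an alternative (version 1.42.0). Levels were computed as CPM of TMM-scaled library sizes over all 24 libraries. Where a group had no read, folds were computed against 3 counts per library, and ratios of few reads were given exact 95% intervals, which cover counting error only. The fits were tested on simulated data first.

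The members and gene lists were chosen with earlier results of these data known. Named were *Abca1*, *Abcg1*, *Abca6* and *Abca9* throughout, called members whose groups do not overlap (up to 10 rises and 10 falls per comparison of cell types), every called member between genotypes or otherwise the 2 with the smallest p, the members by role group, and up to 4 rises and falls of each other list. Genes named beyond these were chosen after their values were seen. Mouse numbers recur across the cell types of a genotype in the labels and were read as the same animal, and the residuals of same-numbered libraries around their groups had correlations of -0.04 to 0.306. Between genotypes the animals differ. Alternatives were DESeq2, RLE size factors, no filter on low counts, one fit over all libraries, mouse number as a block, no fold limit, and leaving out each library in turn. Counts cover all members and list genes, and the values of some of these genes are not reported here.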

Additional observations from a re-analysis of the deposited data

Results flagged for a closer look

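The change of *Abca1* from pre-RPMs to RPMs differed between genotypes by 0.98 on the log2 scale in the interaction test. Among the members' levels in groups of 4 libraries, 3 of 126 groups held a library far from the other three by Dixon's criterion, and chance gives about 1 in 20. *Abcd4* was at 8.73 CPM in RPM library 4 labelled *Il1rl1*-/-, against 6.28 to 6.58 CPM in the others. *Abcg3* was at 32.0 CPM in WT pre-RPM library 2, against 26.4 to 27.2 CPM, and at 250 CPM in WT RPM library 2, against 308 to 309 CPM.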

How the results depend on the processing

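Counts of called members at the step to RPMs and from monocytes to RPMs stayed within 1.5 times their value under every alternative for the test, normalization, filter, block and samples; without a fold limit, at an adjusted p under 0.05, they were 21 for WT RPMs against pre-RPMs (50.4% of all genes) and 23 for RPMs labelled *Il1rl1*-/- against monocytes (49.5%). From monocytes to pre-RPMs the counts were less stable. In WT, 6 members were called with every gene of at least 1 count tested (3.57% of all genes), 4 in a single fit over all 24 libraries (6.01%) and 10 without a fold limit (14.6%), and in cells labelled *Il1rl1*-/- 11 without a fold limit (17.1%). Leaving out each library gave 0 to 6 and 0 to 4 calls there, and 12 to 15 (WT) and 16 to 17 (labelled *Il1rl1*-/-) at the step to RPMs.

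Between genotypes, testing every gene with at least 1 count gave 1 monocyte call (0.448% of all genes), 4 pre-RPM calls (0.889%) and 2 RPM calls (0.839%), and 3 for the interaction at the step to RPMs (0.630%). DESeq2 gave 2 in RPMs (0.185%) and 2 for that interaction (0.101%). The single fit gave 0 in pre-RPMs, 0 in RPMs and 0 for the interaction. Leaving out each library gave 0 to 1 calls in pre-RPMs and in RPMs and 1 to 2 for the interaction. With mouse number as a block, pre-RPMs had 4 calls (1.36% of all genes; *Abca1*, *Abca9*, *Abcd2* and *Abcg1*) and RPMs 2 (0.726%); between genotypes the numbers mark different animals, and same-numbered libraries correlated at over 0.1 in monocytes and RPMs but not in all pre-RPM pairs. The block changed no call beyond those given here and beside the results. The cause of these differences was not tested.

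Directions turned only when a library was left out, and only in differences that were not called: *Abcg1* between WT monocytes and pre-RPMs (-0.13 to 0.22), *Abca1* between genotypes in monocytes (-0.28 to 0.0768) and the interaction of *Abca9* at the earlier step (-0.46 to 0.10). At 3562367 to 6559454 counts per library, levels under about 1 CPM rest on few reads, so that *Abca4*, *Abca5*, *Abcb9*, *Abcc2* and *Abcc8* were left out by the filter on low counts; with every gene of at least 1 count tested they were called in none of the 11 comparisons. The 4 libraries per group limit the genotype comparisons.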
